A study of Mus musculus with 6 samples.

Results

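The genes described here are hepatocyte growth factor (Hgf), its receptor Met and the proteases, inhibitors and adaptor that act between and just below them. They are the 10 genes Hgf, Met, Hgfac, Hpn, St14, Spint1, Spint2, Plau, Plaur and Gab1, chosen by name and matched by Ensembl identifier to 10 of the 48709 mouse gene rows of the count table. Their RNA was measured by RNA-seq of the cochlea, where sound is sensed, in mice made to model DFNB39, an inherited deafness of humans that maps to HGF. The study compared 3 wild-type mice (Hgf+/+) with 3 littermates homozygous for an engineered allele (Hgfdel10Neo/del10Neo, called knock-in here). Per the labels, that allele lacks 10 bp of intron 5 and its name also carries Neo, a selection cassette, so the controls carried neither change. Mice of both genotypes were 5 to 27 weeks old, and no age is given for single mice. Whole cochleae were used, so fewer cells of a type and less RNA per cell cannot be told apart in any value below.

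HGF is secreted as an inactive single chain and becomes active when a serine protease cuts it into 2 linked chains. The active form binds MET, a receptor tyrosine kinase, which then recruits docking proteins such as GAB1 and starts MAPK and PI3-kinase signalling. Ligand is typically made by mesenchymal cells and the receptor by neighbouring epithelial cells, and melanocyte precursors, from which the intermediate cells of the stria vascularis in the cochlea derive, are known to respond to HGF. Loss or excess of HGF in the inner ear is known to cause deafness in mice.

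Hgf (ENSMUSG00000028864) lies on the forward strand of GRCm38 at chr5:16553495-16620152. Intron 5 is a different interval in different annotated transcripts. It is the 5630 bases of chr5:16566862-16572491 in Hgf-204 and Hgf-202, and the 4274 bases of chr5:16572635-16576908 in Hgf-201 and Hgf-203. The position of the deletion within it is not stated in the labels. The short transcripts Hgf-205 and Hgf-206 end in an exon that starts at 16566747 and runs into the first of these intervals, to 16569574 and 16569001. The exon ends that meet when intron 5 is spliced out are printed here for both intervals, and which of them holds the deletion is not known. Lower case is the end of exon 5 and capitals are the start of exon 6, read 5′ to 3′ on the forward strand of GRCm38 from the GENCODE M21 transcripts.
Hgf-204, from chr5:16566847-16566861 to chr5:16572492-16572506: cccccatgaacacagCTTTTTGCCTTCGAG
Hgf-201, from chr5:16572620-16572634 to chr5:16576909-16576923: ctcagtgttcagaagTTGAATGCATGACCT
The 15 bases in capitals in the Hgf-204 line are also those that Hgf-203 leaves out, since its exon 5 starts at 16572507 where exon 6 of Hgf-204 starts at 16572492. Counts were summed per gene, so none of these forms was measured apart from the others.

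The libraries held 24005234 to 42312291 counts in mouse genes. The mitochondrial ribosomal RNA mt-Rnr2 took at least 18.1% of them, and the TMM factors that correct library sizes lay between 0.962 and 1.031. Levels are CPM, counts scaled to a common library total with these factors. Xist was abundant in wild-type replicate 2 and knock-in replicate 3 (758 CPM or more) and at most 0.906 CPM in the other 4 libraries. Over all genes, 7 of 20733 tested genes passed edgeR's quasi-likelihood test at an adjusted p under 0.05 (Benjamini-Hochberg), 2 higher and 5 lower in knock-in. Among marker lists, the 6 genes each for adipocytes and for cartilage all had positive log2 fold changes, with medians of 1.42 and 1.37. None of them passed, and groups did not overlap for 3 genes of each list, where 4.71% of all genes were higher without overlap. Adipocyte markers summed to 57.6 to 98.5 CPM in wild-type and 102.8 to 400 CPM in knock-in libraries. Cartilage sums overlapped, at 100.5 to 191 CPM and 162.1 to 451.1 CPM. Salivary gland markers summed to 31.1 to 209 CPM in knock-in and 12.9 to 17.3 CPM in wild-type libraries. Of these 6 genes 4 were tested, all higher without overlap, beside that 4.71% of all genes. Among the 4, Car6 passed (edgeR adjusted p = 0.0205). None of the 4 passed when any 1 wild-type replicate was left out, and 3 passed without knock-in replicate 1. Muc19, under the filter, was at 4.35 CPM in wild-type replicate 3 and at most 0.341 CPM in the other libraries. Epithelial, fibroblast, spiral ligament fibrocyte, hair cell, endothelial, neutrophil and erythroid markers had medians between -0.09 and 0.11. The strial marginal cell list had a median of 0.14. Macrophage markers had a median of -0.18, and of 0.03 without wild-type replicate 1. All 7 immediate early genes were negative, where 10322 of 20733 genes tested were. Their median was -1.35, and -0.19 without wild-type replicate 1. No gene of these lists passed.

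The ligand and its receptor were the 2 members whose groups did not overlap, and both were lower in knock-in cochlea. With edgeR, 0 of the 9 tested members passed at an adjusted p under 0.05, where 0.0338% of all genes tested did. At an unadjusted p under 0.05 there were 2 members, Hgf and Met, both lower, where 4.5% of all genes tested passed and 1.96% passed as lower. Groups did not overlap for 2 of the 9, where 8.72% of all genes tested did not (4.01% lower, 4.71% higher in knock-in). The 9 log2 fold changes had a median of -0.11, beside 0.00082 over all genes tested, and 7 of them were negative, where 10322 of 20733 genes tested were. That median was -0.18 when wild-type replicate 3 was left out, -0.17 for knock-in replicate 1 and -0.06 for knock-in replicate 3. With DESeq2 on the same counts 1 member, Hgf, was called, where 0.121% of all genes were, and with limma-voom none was.

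**Figure D1:**
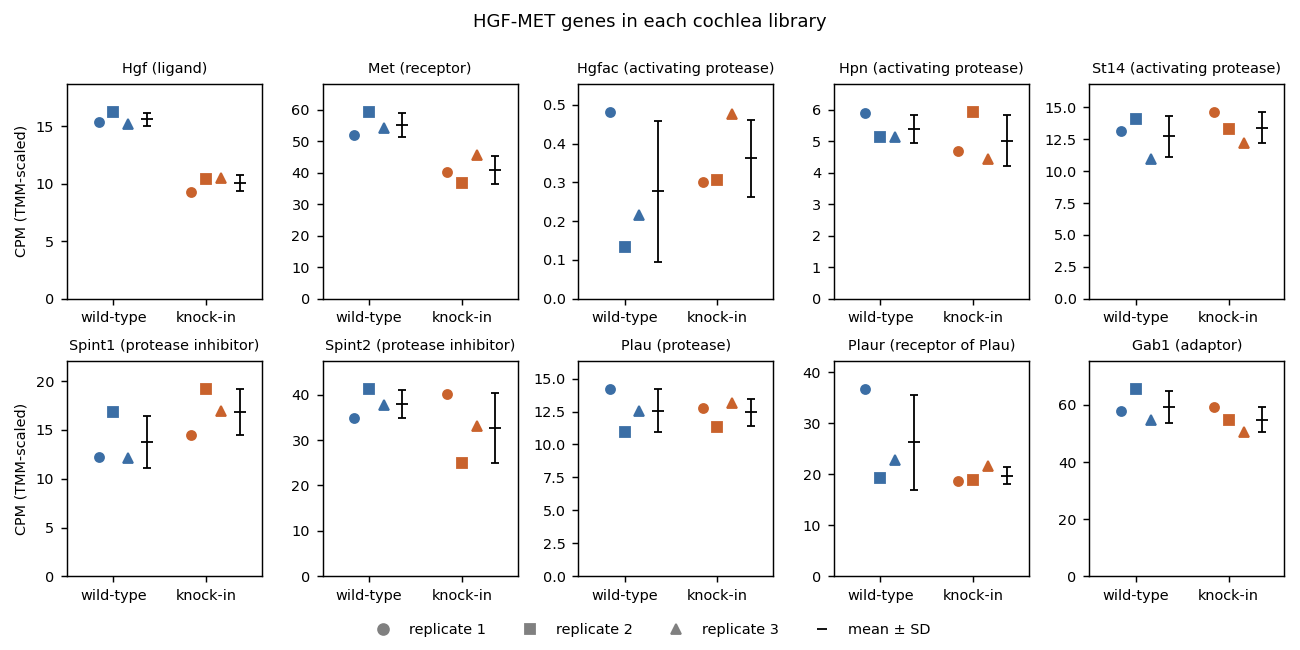
Level of each of the 10 genes in CPM (vertical axis, from 0) in the 3 wild-type and 3 knock-in libraries, 1 point per library, with the mean and SD beside each group. Hgf and Met are the panels in which every knock-in point lies below every wild-type point, and Plaur shows a single high wild-type point at 36.7 CPM.

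Hgf was at 15.4, 16.2 and 15.2 CPM in wild-type replicates 1, 2 and 3, from 383, 483 and 635 counts. In knock-in replicates 1, 2 and 3 it was at 9.24, 10.4 and 10.5 CPM, from 306, 306 and 243 counts. The libraries of each genotype lay close together and far from those of the other: the SD was 3.66% of the mean in wild-type and 7.19% in knock-in, where counting error alone gives 4.47% and 5.92%. Hgf RNA in knock-in was present at 0.645 times the wild-type level (95% interval 0.543 to 0.766), a log2 fold change of -0.63 (SE 0.111). The edgeR quasi-likelihood test gave an unadjusted p of 0.000237, the 20th smallest of 20733, and an adjusted p of 0.246, so Hgf did not pass. It passed in DESeq2 (adjusted p = 0.0129, log2 fold change -0.64), and in edgeR with no filter on low counts (adjusted p = 0.038), where 0.223% of 34124 genes passed. Over the other settings that kept all libraries its adjusted p lay between 0.168 and 0.45. In the authors' deposited table it has an adjusted p of 0.0149, a log2 fold change of -0.64 (SE 0.149) and the 25th smallest p, and 0.181% of the genes with an adjusted p in that table pass. On the authors' regularized log2 scale the 6 values kept the same separation, at 9.18, 9.25 and 9.17 in wild-type and 8.61, 8.75 and 8.76 in knock-in.

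The difference in Hgf had the same size in libraries with and without Xist. It was -0.63 between the single wild-type and the single knock-in library with abundant Xist, and -0.64 between the other 2 and 2, on the log2 scale. Leaving out any 1 library moved the log2 fold change only between -0.67 and -0.57. Neo, the cassette sequence that the allele name carries, was counted 71, 199 and 5 times in knock-in replicates 1, 2 and 3, and 5, 8 and 10 times in the wild-type libraries. For Neo, the library labelled knock-in replicate 3 lay among the wild-type libraries, and its Hgf, 10.5 CPM, lay with the other libraries of its label. Without it the log2 fold change of Hgf was -0.67 (edgeR adjusted p = 0.535). Fibroblast markers, as a list of 7 genes of mesenchymal cells, summed to 6237 to 9519 CPM in wild-type and 6933 to 8451 CPM in knock-in libraries, and their part in the Hgf value was not tested. A gene model on the same strand, Gm43489, overlaps exons of Hgf and held 32 counts over all libraries, against 2356 for Hgf.

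Met, the receptor (ENSMUSG00000009376, GRCm38 chr6:17463800-17573980, forward strand), was at 52.0, 59.4 and 54.2 CPM in wild-type libraries. It was at 40.3, 36.7 and 45.5 CPM in knock-in libraries, each below the lowest wild-type value. The level in knock-in was 0.740 times that in wild-type (95% interval 0.624 to 0.877), a log2 fold change of -0.43 (SE 0.110). The unadjusted p was 0.00293, the 55th smallest, and Met passed neither with edgeR (adjusted p = 0.966) nor with DESeq2 (adjusted p = 0.28). The authors' deposited table gives it a log2 fold change of -0.44 and an adjusted p of 0.26. It was -0.38 between the libraries with abundant Xist and -0.46 between the others, and without any 1 library it stayed between -0.52 and -0.36.

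The marker list for strial intermediate cells and melanocytes was, like Met, lower in knock-in libraries. All 8 of its genes had negative log2 fold changes, where 10322 of 20733 genes tested did. In edgeR's test 4 of the 8 were called as lower, where 0.0338% of all genes tested were called in either direction. Groups did not overlap for 5 of them, all lower in knock-in, where 4.01% of all genes tested were. Leaving out knock-in replicate 3, or either of wild-type replicates 2 and 3, left 2 called, and 7 were negative in the fit lacking wild-type replicate 3. The list summed to 165.5, 178.2 and 182.2 CPM in wild-type replicates 1, 2 and 3 and to 56.8, 71.5 and 62.5 CPM in the knock-in replicates. No gene of it was at 0. The smallest p values in it were those of Dct, a melanin pathway gene, with 106.5 ± 8.86 CPM in wild-type and 22.4 ± 2.74 CPM in knock-in (SD, n = 3 each), and Slc45a2, a melanosomal transporter gene, with 7.98 ± 0.891 and 1.25 ± 0.249 CPM. The 8 log2 fold changes ran from -2.69 for Slc45a2 to -0.09 for Pmel. Kcnj10, which encodes a potassium channel that strial function needs, was at -0.43 and did not pass (edgeR adjusted p = 0.966). Among the knock-in libraries, replicate 2 had the highest sum of the list and the lowest Met, at 36.7 CPM. Other epithelial lists were not lower like Met. Epithelial markers summed to 232.3 to 277.4 CPM in wild-type and 256.8 to 280.1 CPM in knock-in libraries. Strial marginal cell markers summed to 569.3 to 647.5 CPM and 648.0 to 774.2 CPM, in that order. The part of strial intermediate cells, or of any of these cell types, in the difference of Met was not tested.

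**Figure D2:**
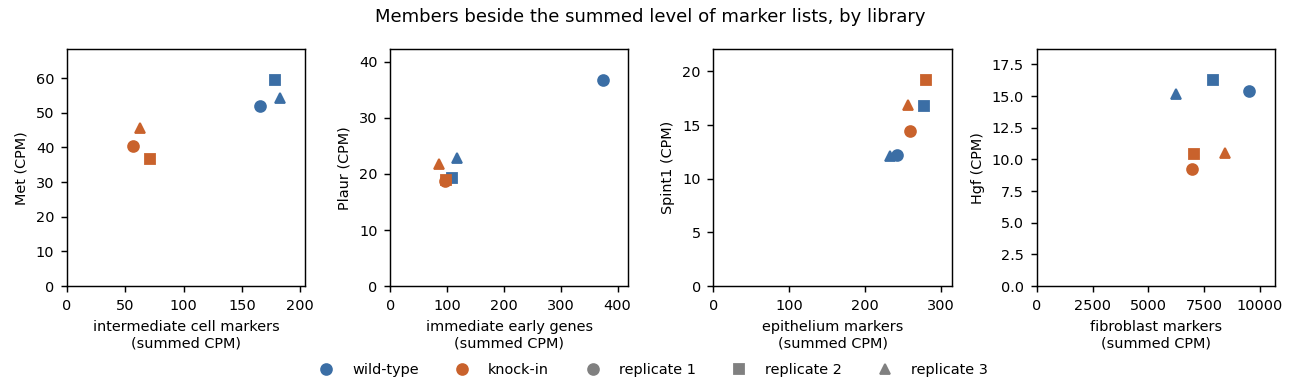
Level of 4 members in CPM (vertical axes) against the summed CPM of a marker list (horizontal axes), 1 point per library, all axes from 0. Met and intermediate cell markers separate the genotypes on both axes, Plaur and immediate early genes are both highest in wild-type replicate 1, Spint1 spreads over a narrow range of epithelial markers, and Hgf is plotted against fibroblast markers.

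Of 3 proteases that cut the Hgf chain, Hpn and St14 were tested and neither passed. Hgfac encodes HGF activator, a serum protease made mainly by the liver. It was counted 12, 4 and 9 times in wild-type and 10, 9 and 11 times in knock-in libraries, too few to pass the filter on low counts, so it was not tested. Summed over libraries it had 25 and 30 counts, a knock-in to wild-type ratio of 1.32 (95% exact counting interval 0.75 to 2.34, counting error only). The hepatocyte list summed to 17.1 to 31.5 CPM in wild-type and 47.7 to 112.8 CPM in knock-in, while its defining gene Alb had 1 count over all 6 libraries. Nearly all of that sum came from 2 of its 5 genes, Cyp2e1 and Ttr, the only ones tested, and neither passed. Cyp2e1 had a mean of 16.2 CPM in wild-type and 54.2 CPM in knock-in, and Ttr of 9.33 and 16.75 CPM. Hpn, which encodes the membrane protease hepsin, was at 5.91, 5.15 and 5.14 CPM in wild-type and 4.68, 5.94 and 4.42 CPM in knock-in, and the groups overlapped. Its log2 fold change was -0.10 (SE 0.168, 95% interval -0.48 to 0.27). It was -0.048, -0.24 and -0.024 in the fits lacking knock-in replicates 1, 2 and 3, and -0.036 in the one lacking wild-type replicate 1. St14, which encodes the epithelial membrane protease matriptase, was at 13.2, 14.1 and 10.96 CPM in wild-type and 14.7, 13.3 and 12.2 CPM in knock-in. The log2 fold change of St14 was 0.08 (SE 0.132, 95% interval -0.22 to 0.37) and turned to -0.03 without wild-type replicate 3, while it was 0.16 in the fit lacking wild-type replicate 2, and 0.01 and 0.14 in those lacking knock-in replicates 1 and 3. Hpn and St14 did not pass (edgeR adjusted p = 0.982 each).

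Spint1 and Spint2 encode membrane-bound Kunitz inhibitors of HGF activator, hepsin and matriptase, and their values went in opposite directions. Spint1 was at 12.3, 16.8 and 12.1 CPM in wild-type and 14.5, 19.2 and 16.9 CPM in knock-in libraries. Its log2 fold change was 0.29 (SE 0.160, 95% interval -0.06 to 0.65), the highest of the 9, with an unadjusted p of 0.0973 and an edgeR adjusted p of 0.966. Between the libraries with abundant Xist it was 0.01, and between the others 0.46. It was 0.47 when wild-type replicate 2 was left out and 0.19 when knock-in replicate 2 was. Spint2 was at 34.9, 41.2 and 37.8 CPM in wild-type and 40.2, 24.8 and 33.1 CPM in knock-in, a log2 fold change of -0.21 (SE 0.163, edgeR adjusted p = 0.966). That value was -0.05 without knock-in replicate 2 and -0.39 without knock-in replicate 1. The groups overlapped for both inhibitors. Epithelial markers, 10 genes with a median log2 fold change of 0.11, summed to 232.3 to 277.4 CPM in wild-type and 256.8 to 280.1 CPM in knock-in. Cldn4, a tight junction gene, had the smallest p of them (0.0175, edgeR adjusted p = 0.966), with a log2 fold change of 0.46, followed by the keratin gene Krt18 at 0.31 (0.13 without knock-in replicate 2). The list's median was 0.25 without wild-type replicate 2 and 0.03 lacking wild-type replicate 3. Salivary gland markers, given above, were as a sum also highest in knock-in. The part of either list in the values of Spint1 and Spint2 was not tested.

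Plau encodes urokinase, a secreted protease best known for activating plasminogen, and Plaur encodes the receptor that holds it at the cell surface. Plau was at 14.2, 10.97 and 12.5 CPM in wild-type and 12.8, 11.3 and 13.2 CPM in knock-in libraries, a log2 fold change of -0.01 (SE 0.131, 95% interval -0.31 to 0.28). Its sign depended on the libraries and covariates used. Plaur was at 36.7, 19.2 and 22.8 CPM in wild-type and 18.7, 18.9 and 21.7 CPM in knock-in. The SD of Plaur in wild-type was 35.1% of its mean, the widest of the 9 tested members, and came from replicate 1. Its log2 fold change was -0.41 (SE 0.212, edgeR adjusted p = 0.966) with all libraries and -0.09 without wild-type replicate 1. The same library was highest for the immediate early list, at 374 CPM against 86.2 to 118.3 CPM in the other 5, with Egr1, a transcription factor gene of that list, at 101.8 CPM there. Macrophage markers were also highest in it, at 594 CPM against 379.9 to 450.1 CPM, and Cd68, a macrophage lysosomal gene, was at 58.7 CPM against 34.9 to 42.4 CPM. The part of these in the Plaur value was not tested.

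Gab1, the docking protein of active MET, was at 58.0, 65.5 and 54.6 CPM in wild-type and 59.3, 54.6 and 50.5 CPM in knock-in libraries. The log2 fold change was -0.11 (SE 0.107, 95% interval -0.35 to 0.13, edgeR adjusted p = 0.971), and the groups overlapped. It was -0.04 and -0.18 in the fits lacking wild-type replicates 2 and 3, and -0.17 and -0.06 in those lacking knock-in replicates 1 and 3. Gm31105 lies on the opposite strand and overlaps exons of Gab1. It held 208 counts over all libraries against 10407 for Gab1, and whether counting used strand is not stated.

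Signs of 4 tested members differed between the single wild-type and knock-in library with abundant Xist and the other 2 and 2. On the log2 scale St14 was at -0.21 and 0.21, Plau at 0.26 and -0.15, Plaur at 0.17 and -0.66, and Gab1 at -0.37 and 0.02, in that order. Hpn was at -0.22 and -0.06 and Spint2 at -0.31 and -0.16. With 1 library per genotype in the first of these there is no replicate check.

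**Figure D3:**
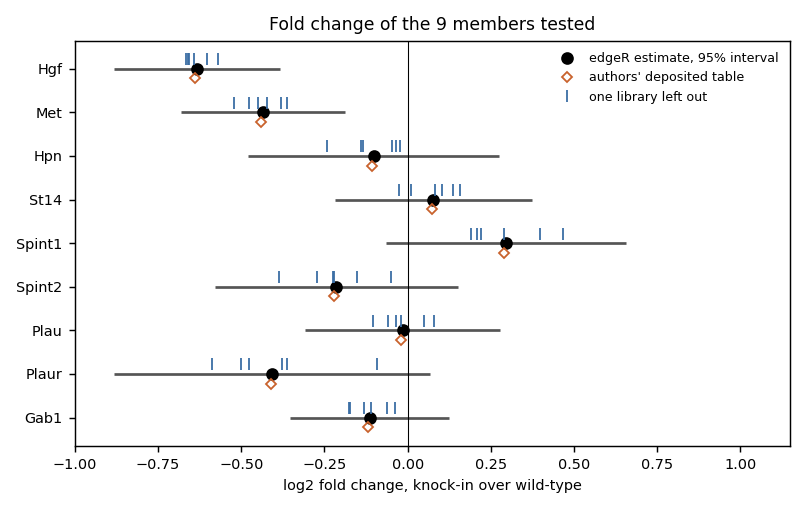
Log2 fold change of knock-in over wild-type (horizontal axis) for the 9 members tested, with the 95% interval of edgeR's fit as bars, the authors' deposited value as diamonds and the values without 1 library as ticks. The intervals of Hgf (-0.88 to -0.38) and Met (-0.68 to -0.19) do not reach 0 before adjustment, and the tick of Plaur nearest 0 is the fit without wild-type replicate 1.

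Ratios of 2 members within a library do not depend on how libraries are scaled, and 4 were compared. The count ratio of Hgf to Met was 0.296, 0.274 and 0.280 in wild-type and 0.229, 0.285 and 0.231 in knock-in, so the groups overlapped (exact permutation test, two-sided, p = 0.3). Spint1 to St14 was 0.930, 1.19 and 1.11 in wild-type and 0.988, 1.44 and 1.38 in knock-in (exact permutation p = 0.3). Spint2 to St14 was 2.65, 2.92 and 3.44 in wild-type and 2.74, 1.86 and 2.71 in knock-in (exact permutation p = 0.3). Plaur to Plau was 2.58, 1.75 and 1.82 in wild-type and 1.46, 1.67 and 1.64 in knock-in, without overlap (exact permutation p = 0.1, the smallest that 3 against 3 allows). Adjusted over the 4 ratios each p was 0.3. No ratio could pass 0.05 with 3 libraries a group, so these tests do not tell whether the ratios differ.

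Per kilobase of annotated exon in wild-type cochlea, the members fell in the order Gab1, Plaur, Spint2, Met, Plau, Spint1, Hgf, St14, Hpn and Hgfac. Gab1 was at 11.7 ± 1.10 CPM per kilobase, Met at 7.19 ± 0.493, Hgf at 2.17 ± 0.0796 and Hgfac at 0.0813 ± 0.0534 (SD, n = 3). Ranges overlapped between neighbours from Gab1 down to Met, between Plau and Spint1, and between St14 and Hpn. They did not overlap between Met and Plau, Spint1 and Hgf, Hgf and St14, or Hpn and Hgfac. Hgf stayed above St14 in 3 of 6 libraries only, the 3 wild-type ones. The length of the longest coding transcript was also used in place of all annotated exons, a choice made after the data were seen. The order then began with Spint2, Plaur and Gab1 in place of Gab1, Plaur and Spint2. Spint1 came above Plau, while Hgf stayed seventh.

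Other genes of the pathway were counted from 5 lists. None of their 59 tested genes passed in edgeR's quasi-likelihood test in either direction. Of 15 other proteases and inhibitors, 11 were tested, with a median log2 fold change of 0.06 and none at an unadjusted p under 0.05. The median turned to -0.02 when wild-type replicate 3 was left out and to -0.08 when knock-in replicate 3 was. Plg, the plasminogen gene, and F11 stayed under the filter at 13 and 9 counts over all libraries, Serpina5 had no count, and Serpinf2 had 49. Serpine2, an inhibitor of urokinase and thrombin, had 246.7 ± 44.2 CPM in wild-type and 216.9 ± 21.8 CPM in knock-in (SD, n = 3 each), and Tmprss6, a membrane protease gene, at 3.42 ± 0.481 and 4.002 ± 0.442 CPM. All 10 paralogs and co-receptors were tested, with a median log2 fold change of -0.06. They ranged from -0.13 for Sdc4, a heparan sulfate co-receptor gene, to 0.14 for Nrp1, a neuropilin gene, and the median turned to 0.01 without wild-type replicate 1. Sdc4 was at -0.07 without wild-type replicate 2, Nrp1 was at 0.01 without knock-in replicate 3, and Serpine2, at -0.19 with all libraries, was at -0.03 without wild-type replicate 1. The 10 attenuators of Met had a median of -0.07, which turned to 0.03 without wild-type replicate 1. Adam10, a protease gene, was at -0.21, but at -0.10 without knock-in replicate 3 and -0.33 without knock-in replicate 1. Errfi1, a feedback inhibitor gene, was at 181.9, 117.0 and 80.1 CPM in wild-type and 100.9, 95.5 and 113.2 CPM in knock-in. Its log2 fold change of -0.29 turned to 0.07 without wild-type replicate 1, the library also highest for the immediate early list, and was -0.54 without wild-type replicate 3.

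The 18 effectors downstream of Met had a median of -0.02, and 14 of them were negative, where 10322 of all 20733 genes tested were. With 1 library left out, 10 (lacking wild-type replicate 1) to 14 were negative, and the median was lowest, at -0.08, lacking wild-type replicate 3. Mapk3, which encodes the kinase ERK1, was at 70.3, 77.6 and 66.4 CPM in wild-type and 65.1, 57.5 and 52.2 CPM in knock-in. Its log2 fold change was -0.29 (SE 0.111, unadjusted p = 0.0263, edgeR adjusted p = 0.966). Groups did not overlap for 2 of the 18, Mapk3 and Stat3, both lower in knock-in, where 4.01% of all genes tested were. Ptpn11, a phosphatase gene needed for MAPK signalling, was at -0.17. Of 10 transcripts that MAPK signalling raises in many cells, 9 were negative, the median was -0.18, and the groups did not overlap for 4, all lower in knock-in, where 4.01% of all genes tested were. These 4 were Spry4, Dusp4, Phlda1 and Etv5, the last 2 named after their values were seen. Spry4, a feedback inhibitor of receptor tyrosine kinases, was at 11.5, 10.9 and 10.2 CPM in wild-type and 8.57, 6.93 and 8.11 CPM in knock-in, a log2 fold change of -0.46 (SE 0.132, unadjusted p = 0.00635, edgeR adjusted p = 0.966). Dusp4, a MAPK phosphatase gene, was at -0.36 (SE 0.151, unadjusted p = 0.0376). Dusp6, another such phosphatase gene, also named later, was at -0.0042, a sign that turned in 3 of the 6 fits without 1 library (53.6 ± 4.06 and 53.5 ± 5.40 CPM; SD, n = 3 each). Without any 1 library, 8 to 10 of the list were negative and its median lay between -0.24 and -0.11. The summed list lay between 144.2 and 152.7 CPM in wild-type and between 131.9 and 137.3 CPM in knock-in. These counts describe the list and do not show that it stands apart from other genes.

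**Figure D4:**
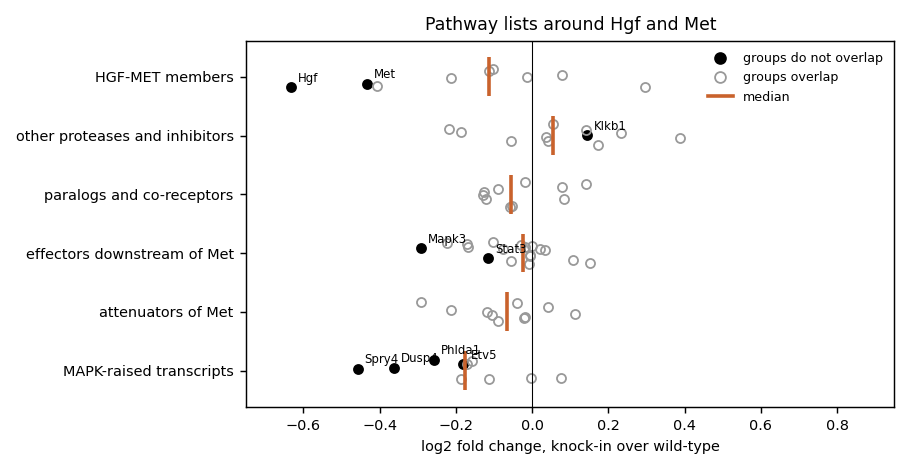
Log2 fold change of knock-in over wild-type (horizontal axis) for the tested genes of the HGF-MET members and 5 pathway lists (rows), 1 point per gene. Filled points are genes whose groups do not overlap, and orange bars are medians, which lie between -0.18 for MAPK-raised transcripts and 0.06 for other proteases and inhibitors.

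Genes with the profile most like that of Hgf over the 6 libraries were sought among 14421 named coding genes with a mean of at least 1 CPM, by the root mean square difference of centred log2 CPM. They were Col6a5, a collagen gene (0.062), Rab17, a small GTPase gene (0.094), and Sfmbt2 (0.113), where the median gene was at 0.349. Col6a5 was at 10.4, 10.5 and 9.15 CPM in wild-type and 5.95, 6.96 and 7.24 CPM in knock-in. Met came sixth from Hgf, at 0.145. For Met the nearest were Syt15 (0.037), Col4a6, a basement membrane collagen gene (0.057), and Lrrc9 (0.066), with the median gene at 0.28 and Hgf in place 140. None of these 6 passed in edgeR's test (adjusted p = 0.966 each), and with 6 libraries many genes share a profile.

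E-boxes, bound by basic helix-loop-helix factors, were looked for in the 250 bases before each RefSeq start (GRCm38.p6), a search chosen after the values were seen. The motifs were CACGTG and CATGTG, on both strands. Entries were found for 8 of the 10 members, all but St14 and Plau, with 11 start regions. A match was held by 2 regions, 1 of the 2 for Hgf and the 1 for Met. Over 32817 regions of the same length, 17.6% held either motif, 6.02% CACGTG and 12.3% CATGTG. At 2 of 11, the regions of the members were near the share for either motif. Both matches are shown with their flanks, forward strand, motif in capitals. In Hgf the letters are CATGTG on the reverse strand.
Hgf, chr5:16553464-16553493: tagatatgtaaaCACATGcattttcctgtt
Met, chr6:17463819-17463848: gggacgaacagaCACGTGctggggcgggta
The Hgf match starts 19 bases and the Met match 126 bases before the start. The Met match lies inside the gene as GENCODE M21 draws it, which starts upstream of this RefSeq start. A match describes the sequence and does not show a bound site.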

How the data were processed

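Ribosomal RNA was depleted, cDNA was primed at random and 93 bases were read from each end, per the labels' protocols. Reads were aligned to GRCm38 (release M11) by STAR 2.5.2 and compared by DESeq2, per the labels and processing notes. The authors deposited raw counts per gene. They also deposited regularized log2 values and a DESeq2 comparison holding log2 fold changes and p-values, besides a base signal and a test score that were not used here. The program that counted reads is not named.

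From the counts, 24 of 48733 rows (spike-ins and transgenes, 0.00151% to 0.0045% of counts) were left out of library sizes and tests. Annotation came from GENCODE M21, which holds 48349 of the 48709 mouse identifiers. The test was edgeR 4.0.16 in R 4.3.3 with filterByExpr, TMM and glmQLFTest, two-sided, genotype as the only term, p-values adjusted over 20733 genes. A standard error is the log2 fold change over the square root of F. Counts were simulated for this comparison (20733 genes), with the changed genes drawn from those with a mean above 50 counts. They gave back 36 of 50 genes lowered to a fold of 0.5, 50 of 50 at 0.25, 48 of 50 at 2 and 50 of 50 at 4, with 16 of 20533 others called. No change as small as that of Hgf or Met was simulated. Ratios were tested with scipy 1.17.1. Replicate numbers follow accession order and pair no samples.

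The members and gene lists were chosen with earlier results of these data known. The rule for names took all members, the 2 genes of smallest p in a list and the 3 most like Hgf and Met. Not all genes it took in marker lists are described above. Among those left out are Cidec (log2 fold change 2.08), Col10a1 (3.71) and Otos (-0.51), which did not pass in edgeR's test. Genes outside the rule (Alb, Kcnj10, Pmel, Muc19, Plg, F11, Serpina5, Serpinf2, Stat3, Phlda1, Etv5, Dusp6) were named after their values were seen. Alternatives were RLE or upper-quartile scaling, no filter, a filter of 1 CPM in 3 libraries, bias-adjusted quasi-likelihood, DESeq2 1.42.0, limma-voom (limma 3.58.1), an Xist or erythroid covariate, leaving out each library in turn and an adjusted p threshold of 0.1.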

Additional observations from a re-analysis of the deposited data

Results flagged for a closer look

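Neo, a cassette sequence among the transgene rows that no comparison used, was above the level of the wild-type controls in 2 of the 3 knock-in libraries. It was at 2.06 CPM of unscaled library totals in knock-in replicate 1 (95% exact counting interval 1.61 to 2.60) and at 6.99 CPM in knock-in replicate 2 (6.06 to 8.04). The wild-type libraries were at 0.207, 0.275 and 0.236 CPM, and knock-in replicate 3 was at 0.208 CPM (0.0676 to 0.486), inside the wild-type intervals. Hgf was 9.24, 10.4 and 10.5 CPM in the same 3 knock-in libraries.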

How the results depend on the processing

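Hgf kept its direction in every alternative run. It passed with no filter (log2 fold change -0.64) and with DESeq2 (-0.64), giving 1 called member in each, against 0 in the other settings, a threshold of 0.1 included; the cause was not tested. With 1 library left out Hgf ranged from -0.67 to -0.57 (edgeR adjusted p = 0.247 to 0.797), and 0 members were called. The authors' regularized log values put its difference at -0.49. Over all genes, 2 were higher and 5 lower; these were 46 and 30 with no filter, 9 and 16 with DESeq2, 4 higher with the Xist covariate and 5 with the erythroid covariate. Leaving out 1 library gave 0 to 13 higher and 2 to 8 lower. St14 turned to -0.027 in the fit lacking wild-type replicate 3, within a leave-one-out range of -0.027 to 0.16. Plau turned to 0.021 with the erythroid covariate, 0.078 lacking wild-type replicate 1 and 0.049 lacking knock-in replicate 2, in a leave-one-out range of -0.10 to 0.078. Among named list genes, whose fits without 1 library were added after seeing the data, Errfi1 turned from -0.29 to 0.066 (leave-one-out range -0.54 to 0.066) and Dusp6 from -0.0042 to 0.049, 0.027 and 0.053 (range -0.091 to 0.053). Of 136 refits of single members, 4 changed sign and 2, both of Hgf, became called. The 4 ratios kept their direction without any 1 library. Hgfac, at 4 to 12 counts per library, was too shallow to test. No paired analysis was possible because the labels give no replicate number shared between groups.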
